A study of Homo sapiens with 4 samples.

Results

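Growth factor receptor tyrosine kinases were followed by RNA sequencing in DaroR cells in which the long non-coding RNA LOC730101 had been knocked down. The members were chosen by name as the rows of the deposited count table for *EGFR*, *ERBB2*, *ERBB3*, *ERBB4*, *IGF1R*, *INSR*, *MET*, *FGFR1*, *FGFR3* and *AXL*, 10 genes of 60606. DaroR cells are a single darolutamide-resistant derivative of LNCaP, an established prostate cancer line, raised in increasing amounts of the antiandrogen and then kept in it. All libraries carry this resistance, and by the labels the groups differ in the siRNA alone: 2 libraries were made after transfection with control siRNA (siControl) and 2 after transfection with a pool of siRNAs against LOC730101 (siLOC730101). The libraries held 39213498 to 53368158 counts. The labels number 2 replicates in each group without saying whether they came from separate cultures, so that p-values measure the spread between these libraries, which may be technical. Of the 10 receptors, 9 passed the expression filter of edgeR together with 19340 other genes, and *ERBB4* did not.

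Receptor tyrosine kinases are membrane proteins that bind a growth factor outside the cell, pair up and phosphorylate each other on tyrosines inside it. Adaptor proteins dock on the phosphorylated tails and switch on the RAS to ERK kinase chain and the PI3K to AKT route, which promote growth and survival. In prostate cancer cells these routes can sustain growth under antiandrogen treatment.

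The study asked whether LOC730101 acts through the microRNA miR-1-3p, so the sites that could pair with it are shown for the receptors whose annotated 3′ UTR holds one of at least 7 bases. In mature miR-1-3p, from RefSeq on GRCh38.p14, the capitals mark the seed, bases 2 to 8.
hsa-miR-1-3p: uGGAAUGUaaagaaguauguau
In the receptor windows, read 5′ to 3′ along the transcript from the GRCh37 genome, the capitals mark the bases that match the seed, with the A opposite the first base of the microRNA where it is present.
*EGFR*, chr7:55274040-55274063, plus strand: tgacttgtttgtcttcCATTCCAt
*EGFR*, chr7:55278183-55278206, plus strand: ttaaagctcctgaggtCATTCCAa
*EGFR*, chr7:55278689-55278712, plus strand: agaaacatttgttatACATTCCtc
*IGF1R*, chr15:99505489-99505512, plus strand: gtggtatgccttggccCATTCCAg
*MET*, chr7:116436662-116436685, plus strand: tcacccattaggtaaACATTCCct
*MET*, chr7:116436977-116437000, plus strand: taaatttttgtatagACATTCCtt
*AXL*, chr19:41766045-41766068, plus strand: ccctcccaggtgttaACATTCCAa
*ERBB4*, chr2:212240560-212240583, minus strand: gcgaactgctttgcctCATTCCAt

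The stronger kinds of match, which contain ACATTCC, were found in *EGFR*, *MET* and *AXL*, 3 of the 10 receptors, and the match in *AXL* was the one 8mer. Among the 13502 tested genes with an annotated 3′ UTR, 13.2% held ACATTCC. The sequence CATTCC alone was found in 7 of the receptors, against 35.8% of the tested genes. The 3′ UTRs of the receptors ran from 614 bases in *ERBB2* to 7898 bases in *ERBB4*, where the median of the tested genes was 1302 bases. No match to CATTCC was found in the 3′ UTR of *ERBB2*, *FGFR1* or *FGFR3*. A match by letters is a description of these windows, and mature miR-1-3p itself was not measured in these poly(A) libraries.

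The knockdown was checked first. LOC730101 (ENSG00000216775 in the table; GRCh38 chromosome 6, 52664366 to 52669155) had a normalized CPM (counts scaled to a common library size with TMM factors) of 47.4 and 50.6 in siControl and of 15.4 and 17.9 in siLOC730101, which is -1.56 ± 0.12 (standard error) on the log2 scale (edgeR adjusted p = 4.34e-06). The prostate luminal identity of the cells was visible in every library. The summed CPM of 9 luminal markers, among them *KLK2*, *KLK3* and *KRT8*, was 6765 to 7489 in siControl and 7341 to 7649 in siLOC730101. For 4 immune markers the sum was 0.0214 to 0.0370 in siControl and 0 to 0.0974 in siLOC730101, with *PTPRC* and *CD3E* at 0 counts in all libraries, and for 3 basal markers it stayed at or below 0.632, with *KRT5* and *TP63* at 0. The sums were 13.9 to 18.0 against 14.8 to 15.1 for 5 stromal markers, 6.64 to 9.44 against 5.84 to 7.01 for 3 endothelial markers, and 2.76 to 3.55 against 3.60 to 3.79 for 4 neuroendocrine markers, in siControl and siLOC730101 respectively.

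DaroR cells carried receptor RNA at very different levels, and the order was led by *ERBB2* and *ERBB3*. Levels of different genes were compared as normalized CPM per kilobase of the exon length in the table. *ERBB2* had a mean of 25.9 ± 0.655 (SD, n = 4 libraries), *ERBB3* of 20.7 ± 1.17, *IGF1R* of 8.32 ± 0.599, *EGFR* of 7.41 ± 0.651 and *INSR* of 3.73 ± 0.131. These 5 receptors lay at percentiles 91.1, 88.5, 73.0, 70.7 and 56.9 of the tested genes. The remaining receptors were low, with 1.37 ± 0.114 for *FGFR1*, 1.14 ± 0.302 for *FGFR3*, 0.622 ± 0.0734 for *MET* and 0.0592 ± 0.0404 for *AXL*, and *ERBB4* had no count. The ranges over the 4 libraries overlapped between *IGF1R* and *EGFR* and between *FGFR1* and *FGFR3*. Within each library *IGF1R* was still above *EGFR*, at 9.15 and 7.81 against 7.75 and 7.05 in siControl. In siLOC730101 the values were 8.34 and 7.97 against 8.13 and 6.69. *FGFR3* lay below *FGFR1* in siControl, at 0.862 and 0.930 against 1.52 and 1.30. In siLOC730101 it lay above *FGFR1* in replicate 1 and below it in replicate 2. The ranges of all other neighbours did not overlap. Exon length is that of all annotated isoforms together, so that a gene expressed as a short isoform appears lower per kilobase than its transcript is; without division by length, *EGFR* and *IGF1R* changed places and no other rank moved.

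**Figure D1:**
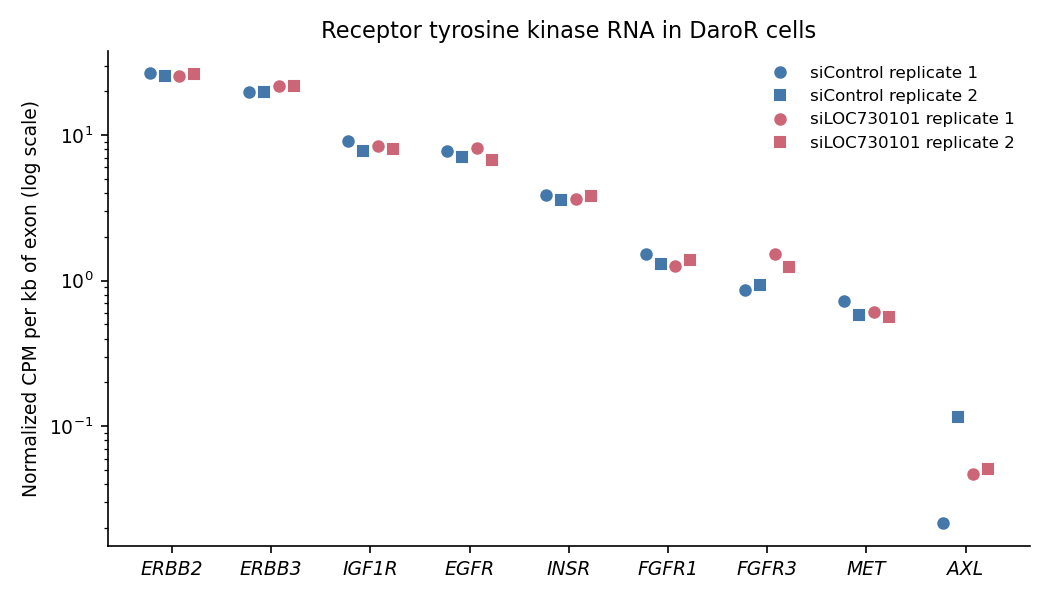
Normalized CPM per kilobase of exon on a log axis for the 9 receptors with counts, with 1 point for each library (blue, siControl; red, siLOC730101; circles, replicate 1; squares, replicate 2). *ERBB2* and *ERBB3* lie between 19.7 and 26.6 in every library, *AXL* lies below 0.117, and *ERBB4*, at 0 counts, is not drawn.

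Summed over the 10 receptors, the ERBB family made up 77.0% and 78.4% of the level per kilobase in the siControl libraries and 78.1% and 78.4% in the siLOC730101 libraries. *IGF1R* and *INSR* together made up 17.2% to 18.5% in siControl and 16.9% to 17.0% in siLOC730101. The share of *FGFR1* and *FGFR3* was 3.36% and 3.39% in siControl and 3.77% and 3.94% in siLOC730101. Among these 10 receptors the ERBB family thus led in each library. The shares depend on which genes were chosen. Receptors outside the 10, such as *FGFRL1* at 95.7 CPM per kilobase, are not in the sum.

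Knockdown of LOC730101 gave no receptor a change that passed the test. The quasi-likelihood test of edgeR called 0 of the 9 tested receptors at an adjusted p under 0.05, and 0.284% of all tested genes. At an unadjusted p under 0.05 there was 1 receptor, *FGFR3*, against 10.8% of all tested genes. In DESeq2, 0 receptors passed the adjusted threshold, where 233 genes were called higher and 64 lower over the whole table. An unadjusted p under 0.05 was given to 2 receptors, *FGFR3* and *ERBB3*. The share of all genes at this threshold in DESeq2 was not computed, so these 2 have no background beside them. DESeq2 gave no adjusted p for *FGFR3*, *MET* and *AXL*. Both siLOC730101 libraries lay outside the range of the siControl libraries for 2 of the 9 receptors, again *ERBB3* and *FGFR3*, and for 41.7% of all tested genes. The median log2 fold change of the 9 receptors was -0.0067 and that of all tested genes was -0.0021.

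**Figure D2:**
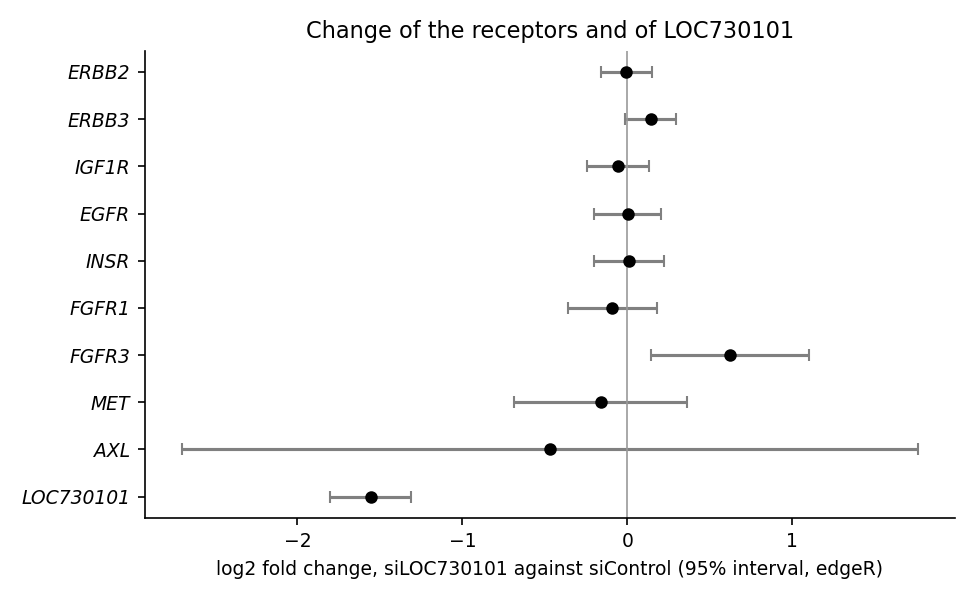
Log2 fold change of siLOC730101 against siControl, with a 95% interval derived from the edgeR test, for the 9 tested receptors and for LOC730101. The receptors are in order of their level. The intervals of *ERBB2*, *IGF1R*, *EGFR* and *INSR* lie within 0.25 of 0 on both sides, the interval of *AXL* runs from -2.70 to 1.76, and that of LOC730101 runs from -1.80 to -1.31.

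*ERBB2* and *ERBB3* form the strongest signalling pair of the ERBB family, in which ERBB2 has no known ligand of its own and ERBB3 has an impaired kinase and recruits PI3K. *ERBB2*, on chromosome 17 of GRCh38 from 39687914 to 39730426, had a normalized CPM of 274.0 and 261.4 in siControl and of 261.2 and 271.8 in siLOC730101. The groups overlapped, and the log2 fold change was -0.0067 (95% interval -0.16 to 0.15, edgeR adjusted p = 0.989), so that the interval holds changes between 0.893-fold and 1.11-fold. *ERBB3*, on chromosome 12 from 56076799 to 56103505, had 231.1 and 230.4 in siControl and 255.2 and 253.6 in siLOC730101. Here both siLOC730101 libraries were higher and the libraries of each group lay close together, with a log2 fold change of 0.14 (95% interval -0.012 to 0.29, edgeR adjusted p = 0.516). This is a fold of 1.10, and its direction was the same under the 13 alternatives tried, in which it lay between 0.10 and 0.15 on the log2 scale.

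*EGFR* encodes the receptor for EGF, TGFα and related ligands, and *ERBB4* a receptor for neuregulins. *EGFR*, on chromosome 7 from 55019017 to 55211628, had a normalized CPM of 123.5 and 112.4 in siControl and of 129.6 and 106.7 in siLOC730101. The siLOC730101 libraries enclosed the siControl libraries, and the log2 fold change was 0.0018 (95% interval -0.20 to 0.21, edgeR adjusted p = 0.998). Its sign depended on the scaling, with a value of -0.028 with upper-quartile factors. *ERBB4*, on chromosome 2 from 211375717 to 212538841, had 0 counts in each of the 4 libraries. With 3 counts as the limit that a count of 0 allows, its level was at most 0.0061 CPM per kilobase in the shallowest library, or 0.012 if both mates of a pair were counted, which covers counting error only.

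*IGF1R* and *INSR* encode closely related receptors for the insulin-like growth factors and insulin, which signal through the IRS docking proteins. *IGF1R*, on chromosome 15 from 98648539 to 98964530, had a normalized CPM of 127.6 and 108.9 in siControl and of 116.3 and 111.1 in siLOC730101. Both siLOC730101 values fell inside the siControl range, and the log2 fold change was -0.057 (95% interval -0.25 to 0.13, edgeR adjusted p = 0.887). *INSR*, on chromosome 19 from 7112255 to 7294414, had 41.7 and 38.8 in siControl and 39.7 and 41.5 in siLOC730101, with a log2 fold change of 0.011 (95% interval -0.20 to 0.22, edgeR adjusted p = 0.989). The siLOC730101 values of *INSR* likewise lay inside the siControl range, and its sign changed to -0.021 with upper-quartile factors.

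*MET* encodes the receptor for hepatocyte growth factor and *AXL* the receptor for GAS6, and both are known for bypass signalling in drug-resistant tumours. *MET*, on chromosome 7 from 116672196 to 116798377, had a normalized CPM of 5.25 and 4.23 in siControl and of 4.43 and 4.06 in siLOC730101. The groups overlapped, with a log2 fold change of -0.16 (95% interval -0.69 to 0.36, edgeR adjusted p = 0.884). *AXL*, on chromosome 19 from 41219223 to 41261766, received 6 and 28 counts after control siRNA and 10 in each siLOC730101 library. The log2 fold change of *AXL* was -0.47 (95% interval -2.70 to 1.76, edgeR adjusted p = 0.929); leaving out siControl replicate 2 moved it to 1.17 and leaving out siControl replicate 1 to -1.23. No change of *AXL* was detectable with counts this low and siControl libraries this far apart. Set beside the miR-1-3p matches shown above, *EGFR*, *MET* and *AXL*, which hold ACATTCC, had log2 fold changes of 0.0018, -0.16 and -0.47, and *IGF1R*, which holds CATTCCA, had -0.057. *ERBB3* and *INSR*, with CATTCC alone, had 0.14 and 0.011, and *ERBB4*, which also holds CATTCCA, was not tested. *ERBB2*, *FGFR1* and *FGFR3*, without a match to CATTCC, had -0.0067, -0.091 and 0.62. None of these 9 passed the test.

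The FGF receptors held the member with the highest log2 fold change. *FGFR3*, on chromosome 4 from 1793293 to 1808872, received 226 and 211 counts after control siRNA and 302 and 229 after siLOC730101, although the latter libraries were smaller. Its normalized CPM was 4.18 and 4.51 in siControl and 7.35 and 6.03 in siLOC730101. Both siLOC730101 libraries were above both siControl libraries, by 1.54-fold in the fit (95% interval 1.11 to 2.15), or 0.62 ± 0.23 (standard error) on the log2 scale. The adjusted p was 0.285 in edgeR and lay between 0.156 and 0.468 over the alternatives that gave one, above the threshold in each. The unadjusted p of 0.0142 became 0.107 without siLOC730101 replicate 1. *FGFR1*, on chromosome 8 from 38400215 to 38468834, had 26.1 and 22.3 CPM in siControl and 21.8 and 23.8 in siLOC730101, with overlapping groups and a log2 fold change of -0.091 (95% interval -0.36 to 0.18, edgeR adjusted p = 0.872).

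**Figure D3:**
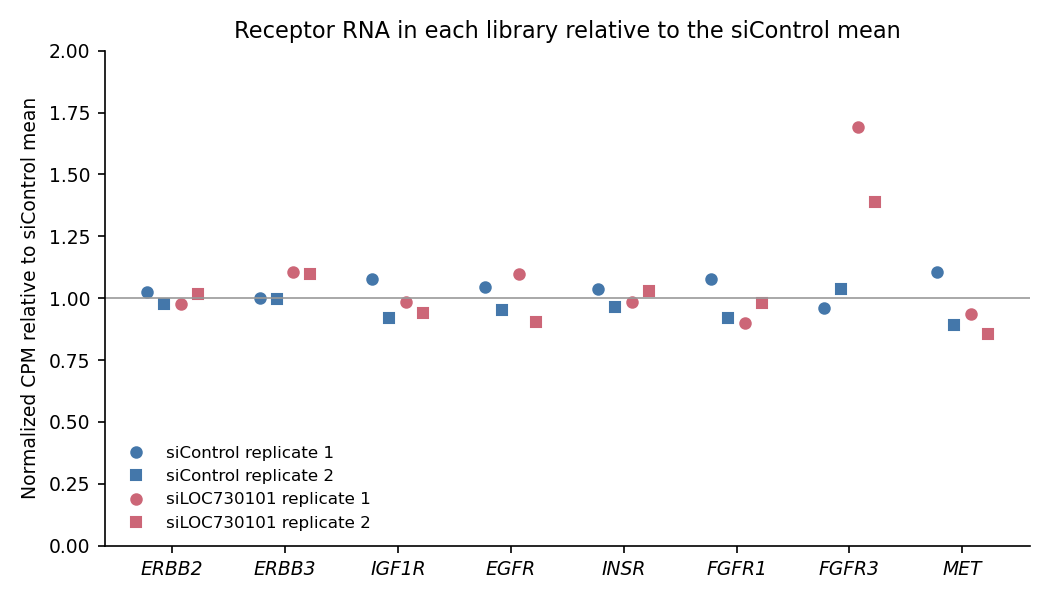
Normalized CPM of 8 receptors in each library, divided by the siControl mean of the same gene, on a linear axis (blue, siControl; red, siLOC730101; circles, replicate 1; squares, replicate 2). The red points of *FGFR3* lie above all its blue points, those of *ERBB3* lie slightly above theirs, and the colours overlap for the other 6 receptors; *AXL*, with at most 28 counts in a library, and *ERBB4* are not drawn.

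Ratios between related receptors within a library do not depend on how the libraries were scaled, and 4 of them were compared. The level of *FGFR3* per kilobase was 0.567 and 0.716 of that of *FGFR1* in siControl and 1.20 and 0.900 of it in siLOC730101, a log2 difference of 0.70. The ratio of *ERBB3* to *ERBB2* was 0.743 and 0.777 in siControl and 0.861 and 0.822 in siLOC730101, a log2 difference of 0.15. In both ratios the siLOC730101 libraries were higher, and the exact two-sided permutation test gave p = 0.33, the smallest value that 2 libraries against 2 allow. The ratio of *EGFR* to *ERBB2* was 0.292 and 0.278 in siControl and 0.321 and 0.254 in siLOC730101, and that of *INSR* to *IGF1R* was 0.421 and 0.458 against 0.439 and 0.480. Both of these overlapped between the groups (exact permutation test, p = 1.0 and p = 0.667).

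Counting was done without strand, so that reads from genes on the opposite strand cannot be told apart where exons overlap. The largest such overlap was that of *MIEN1* with *ERBB2*, of 571 bases or 5.53% of the *ERBB2* exons. *MIEN1* had a log2 fold change of 0.50 (edgeR adjusted p = 0.129). *PGAP3* covered 1.40% of the exons of *ERBB2* and had a log2 fold change of 0.0013. *EGFR-AS1* covered 1.17% of the exons of *EGFR*, with 10 to 28 counts in a library, and *LETM2* covered 0.802% of those of *FGFR1*, with 78 to 173 counts. The other overlapping genes, ENSG00000257411 at *ERBB3*, ENSG00000255201 at *FGFR1* and ENSG00000269652 at *AXL*, had at most 2 counts in a library. No gene of the table overlapped the exons of *ERBB4*, *IGF1R*, *INSR*, *MET* or *FGFR3*.

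The rest of the pathway was followed with 10 lists that together hold 184 genes, of which 137 were tested. The adjusted threshold was passed by 0 of them in edgeR, and 7 (5.11%) had an unadjusted p under 0.05, of which 4 were higher and 3 lower; over all tested genes the shares were 0.284% and 10.8%. DESeq2 gave 1 pathway gene with an adjusted p under 0.05, *DDR1*, and called 233 genes higher and 64 lower over the whole table. Leaving out siLOC730101 replicate 1 leaves 1 library in that group. The log2 fold changes were then 0.41 for *DDR1*, 0.48 for *IGFBP2*, -0.45 for *LRIG2* and 0.28 for *MAP2K2*. In the fit to all libraries they were 0.33, 0.39, -0.32 and 0.14. *LRIG2* and *MAP2K2* were named after their values were seen. The groups did not overlap for 41 of the 137 genes (29.9%), against 41.7% of all tested genes, and their median log2 fold change was 0.015. With library size only as the scaling, the median of all tested genes moved from -0.0021 to -0.039, so that list medians this close to 0 depend on the scaling.

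Among other receptors of the same families, 6 of 7 were tested, and 5 of them had a log2 fold change above 0, with a median of 0.12. *FGFRL1*, which binds FGFs but has no kinase domain, had the highest level with 95.7 CPM per kilobase, above every receptor described so far. Its normalized CPM was 410.1 and 383.6 in siControl and 436.9 and 431.2 in siLOC730101, without overlap (log2 fold change 0.13, edgeR adjusted p = 0.550). *TYRO3*, of the AXL family, and *FGFR4* followed at 2.11 and 1.52 CPM per kilobase, both above *AXL* in every library.

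Of 42 further receptor tyrosine kinases, 26 were tested and 6 had 0 counts in all libraries. Their median log2 fold change was -0.041. The highest levels per kilobase were those of the ephrin receptor *EPHB4* (15.2), *LMTK2* (12.2), the collagen receptor *DDR1* (9.21), *PTK7* (7.26) and *STYK1* (6.57). *DDR1* had 73.8 and 75.2 CPM in siControl and 88.6 and 98.5 in siLOC730101. These groups were apart, by 0.33 ± 0.086 (standard error) on the log2 scale (edgeR adjusted p = 0.132). *DDR1* passed the threshold without a filter (edgeR adjusted p = 0.0349), with a replicate term (edgeR adjusted p = 0.0077) and in DESeq2 (adjusted p = 0.0299). These settings called 324, 485 and 233 genes higher over the whole table, against 41 in the main edgeR test. They called 113, 167 and 64 lower, against 14. With RLE factors, upper-quartile factors, library size only or halved counts *DDR1* did not pass. Without siLOC730101 replicate 1 its log2 fold change was 0.41. *EPHB4* and *PTK7* had log2 fold changes of -0.11 each, with both siLOC730101 libraries below both siControl libraries and adjusted p-values in edgeR of 0.687 and 0.736.

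*TGFA*, which encodes a ligand of EGFR, was the most abundant of the growth factor ligand genes per kilobase. For the ERBB receptors, 7 of 11 ligand genes were tested, with a median log2 fold change of -0.23, and *TGFA*, *HBEGF* and *EGF* had the highest levels, of 5.90, 2.06 and 0.987 CPM per kilobase. *EGF* had 8.66 and 9.04 CPM in siControl and 5.82 and 6.61 in siLOC730101, without overlap, and its log2 fold change of -0.51 had an adjusted p of 0.317 in edgeR. *TGFA* overlapped between the groups, with a log2 fold change of -0.020. Of the ligands of MET, AXL and the FGF receptors, 4 of 21 were tested and 9 had 0 counts in all libraries. *GAS6*, the ligand of AXL, had the highest level of that list, 3.81 CPM per kilobase, followed by *PROS1* at 1.05 and *FGF22* at 0.652, and the log2 fold change of *GAS6* was 0.047.

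In the insulin-like growth factor system, the binding proteins, which hold the ligands outside the cell, had log2 fold changes in both directions. Of 10 genes, 5 were tested. *IGFBP2* had 32.9 and 39.8 CPM in siControl and 44.4 and 50.5 in siLOC730101, a log2 fold change of 0.39 (edgeR adjusted p = 0.175). *IGFBP5* had 17.5 and 17.8 in siControl and 12.0 and 13.7 in siLOC730101, a log2 fold change of -0.46 (edgeR adjusted p = 0.208). Neither overlapped between the groups and neither passed the threshold in this fit. *IGFBP2* passed it without a filter (edgeR adjusted p = 0.0387) and with a replicate term (edgeR adjusted p = 0.0097), settings that called more genes over the whole table. It did not pass in DESeq2, nor with RLE factors, upper-quartile factors, library size only or halved counts. Without siLOC730101 replicate 1 its log2 fold change was 0.48. *IGFBP3*, at 8.67 CPM per kilobase, overlapped between the groups with a log2 fold change of -0.033. All 9 genes for ligand sheddases and co-receptors were tested, led per kilobase by *SDC1* (29.5), *IGF2R* (25.1) and the sheddase *ADAM10* (16.7), with log2 fold changes of -0.19, 0.011 and -0.13.

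Inside the cell, 21 of 22 adaptors and docking proteins were tested, with a median log2 fold change of 0.076. *GRB2*, which links receptors to the RAS activator SOS, had 36.0 CPM per kilobase, and *PIK3R1*, a regulatory subunit of PI3K, and *PTPN11*, the phosphatase SHP2, had 25.1 and 23.5. Their log2 fold changes were 0.11, -0.038 and 0.026. In the RAS to ERK kinase chain all 14 genes were tested, 11 had a log2 fold change above 0 (8 with library size only) with a median of 0.052, and the groups did not overlap for 6 (42.9%). Over all tested genes, 49.6% were above 0 and the groups did not overlap for 41.7%. *NRAS* and *MAPK3* were among the highest per kilobase, at 34.6 and 21.8, with log2 fold changes of 0.11 and 0.14. *HRAS*, named after its values were seen, had 35.9 and 35.6 CPM in siControl and 41.1 and 44.6 in siLOC730101 (log2 fold change 0.26, edgeR adjusted p = 0.326).

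RNA was followed for 34 genes of feedback inhibition and receptor turnover, of which 33 were tested. It was also followed for 20 genes induced by ERK, of which 18 were tested. Signalling itself was not measured. The medians were -0.022 and 0.10 on the log2 scale. The adaptor *GRB10*, the ERBB3 ubiquitin ligase *RNF41* and the endocytic protein *EPS15* were the highest of the first list per kilobase. Their levels were 31.1, 25.4 and 24.2, and their log2 fold changes were 0.075, 0.16 and -0.0021. Among the ERK-induced genes *CCND1*, *MYC* and *ELF1* led with 49.5, 27.3 and 9.67 CPM per kilobase and log2 fold changes of -0.063, 0.16 and 0.036. *MYC* had 118.4 and 117.8 CPM in siControl and 130.9 and 133.0 in siLOC730101 (edgeR adjusted p = 0.478). These groups do not overlap, which held for 41.7% of all tested genes. In edgeR, 2 of the 33 inhibitor and turnover genes (6.06%) had an unadjusted p under 0.05, and 1 of the 18 ERK-induced genes (5.56%). Over all tested genes the share was 10.8%. Those of the first list, named after their values were seen, were *LRIG2* and the ERK phosphatase *DUSP5*, which is on both lists. Their log2 fold changes were -0.32 (edgeR adjusted p = 0.268) and 0.47 (edgeR adjusted p = 0.274). *LRIG2* had 41.7 and 39.7 CPM in siControl and 35.4 and 29.6 in siLOC730101, and *DUSP5* had 8.64 and 9.57 against 11.8 and 13.5.

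**Figure D4:**
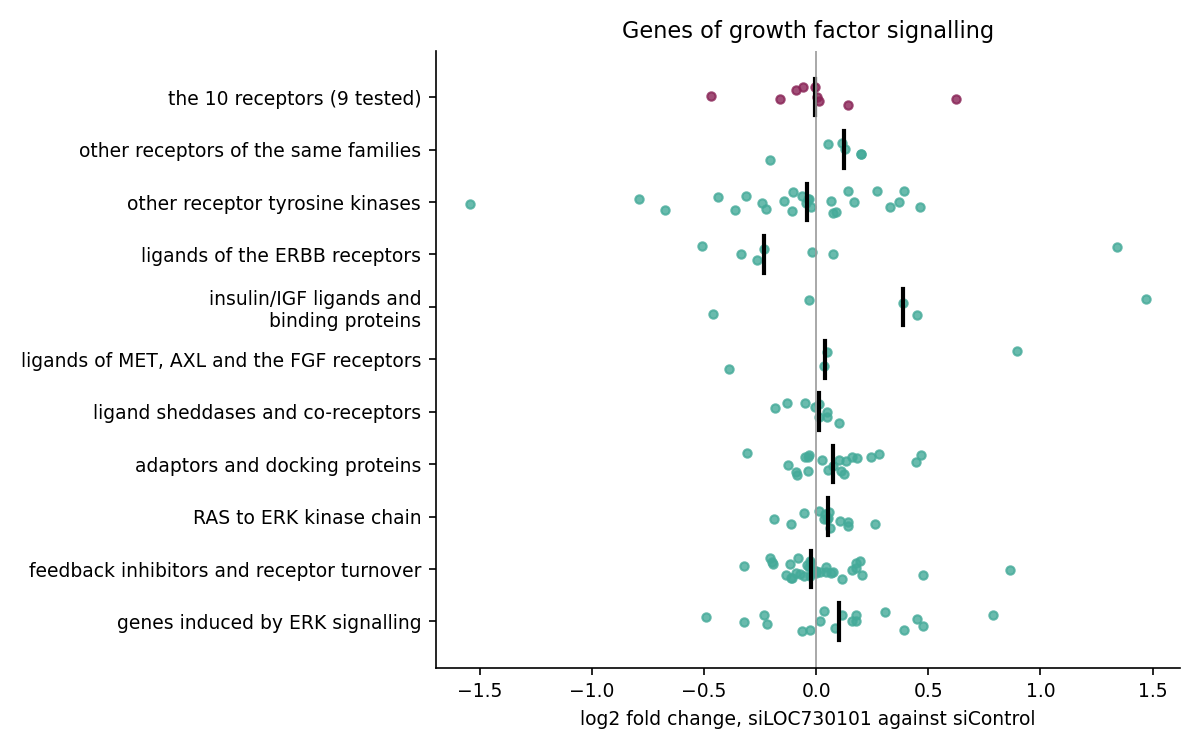
Log2 fold change of siLOC730101 against siControl for each tested gene of the receptors (purple) and of the 10 pathway lists (green), 1 point for each gene, with the median of each list as a black bar and points spread vertically for legibility. The median of the receptors lies at -0.0067, and the medians of the lists lie between -0.23 and 0.39, the outermost being those of the ERBB ligands and of the insulin and IGF ligands with their binding proteins.

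The genes whose course over the 4 libraries was most like that of *FGFR3* and *ERBB3*, the receptors with the lowest unadjusted p, were found by the Euclidean distance between their log2 CPM values after subtraction of the mean of each gene. Among 14244 genes, *H2BC11*, *GOLGA2P10* and *CHD1-DT* were nearest to *FGFR3*, with distances of 0.0959, 0.123 and 0.124. *SLC48A1*, *TBC1D9B* and *EIF3J* were nearest to *ERBB3*, with distances of 0.00971, 0.00978 and 0.0121. With 4 libraries such likeness describes these libraries alone. In edgeR, 0 of these 6 genes had an adjusted p under 0.05, against 0.284% of all tested genes. The 6 were picked for their likeness to receptors that were not called, so this count adds no separate result.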

How the data were processed

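Poly(A) RNA was sequenced from DaroR cells in 4 libraries, 2 siControl and 2 siLOC730101. The authors filtered reads with Trim-galore, aligned them and ran featureCounts 2.0.1, and the raw counts were deposited in 1 table. Its header names hg38 and gencode version 41, whereas the methods name STAR with hg19 and the labels list BWA. The command has no paired-end or strand option. Of the values from 1 to 20 counts, 66.0% to 70.1% in a library were even, so that mates may have been counted apart.

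Counts were filtered with filterByExpr, scaled with TMM and tested with the quasi-likelihood test of edgeR 4.0.16 in R 4.3.3 at package defaults, with condition as the only term and Benjamini-Hochberg adjustment over 19349 genes. This test gives no standard error or interval. Both were approximated from its log2 fold change and F statistic, with a t quantile for the 95% interval. DESeq2 1.42.0, other scalings and filters, halved counts, a replicate term and leaving out each library were alternatives. Exact permutation tests used Python 3.11.15 with scipy 1.17.1. For likeness, 0.5 was added to the CPM, and genes with a mean count above 50 were used. Sites were searched in the 3′ UTR of the canonical transcript on GRCh37 (gencode 44 lifted to that build), and gene positions are those of the table on GRCh38.

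The receptors and lists were chosen with earlier results of these data known. Named genes are the receptors, LOC730101, genes of a list with an adjusted p under 0.05 (at most 5), the 3 genes of each list with the highest level per kilobase (5 for the further receptors), the markers, genes overlapping a receptor and the nearest genes of the 2 receptors with the lowest p; others are marked in the text. Results for some marker and pathway genes, which stayed in the sums, counts and medians, are not reported here.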

Additional observations from a re-analysis of the deposited data

How the results depend on the processing

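The count of receptors with an adjusted p under 0.05 was 0 in the edgeR test and in each of the 13 alternatives, and 1 at an unadjusted p under 0.05. The direction of *ERBB3* and *FGFR3* held in all 13, and the log2 fold change of LOC730101 stayed between -1.67 and -1.44. Of 116 receptor log2 fold changes over the alternatives, 18 had the opposite sign. The receptors concerned had main values from -0.16 to 0.011, apart from *AXL* at -0.47, which rests on few counts. For *EGFR* the opposite values were -0.00092 with RLE factors, -0.028 with upper-quartile factors and -0.033 with library size only. They were also -0.0025 without a filter, -0.0030 with the replicate block and -0.0031 with halved counts. Without siControl replicate 2 the value of *EGFR* was -0.062, and without siLOC730101 replicate 1 it was -0.14. For *INSR* they were -0.021 with upper-quartile factors and -0.027 with library size only. Without siControl replicate 2 the value of *INSR* was -0.038, and without siLOC730101 replicate 2 it was -0.024. When each library was left out, the ranges were -0.14 to 0.13 for *EGFR*, -0.038 to 0.031 for *ERBB2*, -0.16 to 0.063 for *IGF1R*, -0.038 to 0.066 for *INSR*, -0.30 to 0.0058 for *MET*, -0.20 to 0.029 for *FGFR1* and -1.23 to 1.17 for *AXL*. *AXL* could not be fitted with halved counts, where it did not pass the filter. Over all tested genes, 41 were called higher and 14 lower. These counts became 324 and 113 without a filter, 233 and 64 with DESeq2, 87 and 24 with the legacy method off, 485 and 167 with the replicate block, 113 and 35 with halved counts, and 1244 and 850 at an unadjusted p under 0.05; with library size only, 35 were lower. Without 1 library they ranged from 77 to 923 higher and from 26 to 272 lower, the most without siLOC730101 replicate 1. Pathway genes called, 0 in the edgeR test, were 2 without a filter (*DDR1* and *IGFBP2*), 2 with the replicate block (again *DDR1* and *IGFBP2*, edgeR adjusted p = 0.0077 and 0.0097), 1 with DESeq2 (*DDR1*), 0 to 4 without 1 library, the 4 being *DDR1*, *IGFBP2*, *LRIG2* and *MAP2K2* without siLOC730101 replicate 1, and 7 at an unadjusted p under 0.05. The labels do not say that a replicate number marks a shared culture or day, and the deviations of same-numbered libraries had a correlation of 0.029 over genes, so that the numbers were not used as pairs. The estimate for *AXL* rests on 6 to 28 counts in a library, and both of these extremes are siControl libraries. For *ERBB4*, at 0 counts, no change could be estimated.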
